A study of Mus musculus with 4 samples.

Results

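Keratins are the intermediate filament proteins of epithelial cells. Each filament is built from an acidic type I keratin together with a basic type II keratin, and the pairs differ between epithelia: Krt5 with Krt14 in the basal layer of stratified epithelium, Krt1 with Krt10 in the layers above it, and Krt8 with Krt18 in simple epithelium. Krt15 is a further type I keratin of basal cells, Krt17 is a type I keratin of embryonic ectoderm, appendages and wounded skin, and Krt19 (type I) and Krt7 (type II) are found in simple epithelia and in periderm, the transient outer cell layer of the embryonic epidermis. These 10 genes were followed here in single cells of the embryonic mouse nose, an organ in which epidermis, periderm, respiratory and olfactory epithelia lie next to each other. They were taken by symbol from the 32285 genes of the feature table, and all 10 were present. A further 43 keratin genes are in the same table.

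The cells came from whole noses at embryonic day 14.5, dissociated with papain and collagenase, cryopreserved and taken through 3-prime droplet RNA sequencing. There were 2 control and 2 mutant libraries. The mutants carried Sox10cre with yap flox/WT and taz flox/flox in the series design, and Tg(Sox10-cre)1Wdr with Yapflox and Tazflox on C57Bl/6J in the labels. The controls are yap flox/flox;taz flox/flox in the design but C57Bl/6J in the labels, and which holds was not settled. Sox10-cre acts in the neural crest lineage, and Yap1 and Wwtr1 (the gene for TAZ) encode transcriptional coactivators of the Hippo pathway. The labels speak of 2 noses of each kind and do not say whether each library is a separate embryo, so p-values measure the spread between these libraries only. Sox10 itself was at 5.38, 1.98, 3.43 and 2.74 UMIs per 1000000 in the basal keratinocyte-like cells of control 1, control 2, mutant 1 and mutant 2 and had no UMI in suprabasal ones. Yap1 was at 111, 104, 85.2 and 88.1 UMIs per 1000000 in the basal cells in the same order (edgeR adjusted p = 0.75), and Wwtr1 at 51.3, 46.6, 39.0 and 53.1 (edgeR adjusted p = 0.95). The floxed exons are not given in the sources used here, and 3-prime reads can lie outside them.

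After filtering, 3926, 2418, 2908 and 4032 cells were retained, with 33517888, 18939694, 27549633 and 25199142 UMIs. A UMI marks 1 captured molecule. Clusters were built without any keratin gene and named from other markers, so no keratin entered the clustering or the marker lists. The rule for naming clusters was, however, set after keratin levels had been seen. The 16 epithelial clusters held 1450 cells: 654 basal keratinocyte-like, 232 suprabasal keratinocyte-like, 52 periderm-like, 99 respiratory-like, 33 multiciliated-like, 166 olfactory epithelium-like, 89 olfactory neuron-like and 125 unnamed. Control 2 gave 159 epithelial cells, against 456, 379 and 456 in control 1, mutant 1 and mutant 2. It had 5 respiratory-like, 1 multiciliated-like, 3 olfactory epithelium-like and 6 olfactory neuron-like cells, so control and mutant libraries were not compared in those classes. Levels are given as CPM, the UMIs of a gene per 1000000 UMIs of that class. Each UMI counts a transcript end, so these levels can be set side by side between genes without dividing by transcript length.

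The genes lie in both keratin clusters of the mouse genome (GRCm38). On chromosome 11 are the type I genes Krt10 (99385254 to 99389364), Krt15 (100131758 to 100135928), Krt19 (100140810 to 100148665), Krt14 (100203162 to 100207548) and Krt17 (100256217 to 100261029), all on the minus strand. On chromosome 15 are the type II genes Krt7 (101411043 to 101430313, plus strand), Krt5 (101707070 to 101712898, minus), Krt1 (101845426 to 101850794, minus) and Krt8 (101996698 to 102004482, minus), and beside Krt8 the type I gene Krt18 (102028180 to 102032027, plus). The promoters of the simple pair Krt8 and Krt18, whose levels ran most closely together over the epithelial clusters, and of the basal pair Krt5 and Krt14 are shown because these pairs divide the nasal epithelium in the results that follow. The bases run from 250 before the start site to 10 after it, 5′ to 3′ on the strand of the gene, from RefSeq on GRCm38.p6. Capitals mark matches on either strand to the TATA box TATAAA, the AP-2 motif GCCNNNGGC, the TEAD motif GGAATG or the SP1 motif GGGCGG.
Krt8: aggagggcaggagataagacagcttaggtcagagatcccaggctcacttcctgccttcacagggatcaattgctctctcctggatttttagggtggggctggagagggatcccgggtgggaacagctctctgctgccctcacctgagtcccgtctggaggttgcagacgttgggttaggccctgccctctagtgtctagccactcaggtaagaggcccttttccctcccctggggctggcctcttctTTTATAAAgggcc
Krt18: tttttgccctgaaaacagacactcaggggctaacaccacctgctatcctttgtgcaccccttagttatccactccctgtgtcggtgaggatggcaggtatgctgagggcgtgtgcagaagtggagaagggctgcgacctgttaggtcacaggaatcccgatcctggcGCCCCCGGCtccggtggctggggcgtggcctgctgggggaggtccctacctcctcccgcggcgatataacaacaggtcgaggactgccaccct
Krt5: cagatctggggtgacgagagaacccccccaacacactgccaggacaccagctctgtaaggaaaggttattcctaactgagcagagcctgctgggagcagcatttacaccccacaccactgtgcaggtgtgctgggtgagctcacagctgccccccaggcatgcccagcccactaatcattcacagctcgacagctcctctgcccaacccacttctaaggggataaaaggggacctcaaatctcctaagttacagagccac
Krt14: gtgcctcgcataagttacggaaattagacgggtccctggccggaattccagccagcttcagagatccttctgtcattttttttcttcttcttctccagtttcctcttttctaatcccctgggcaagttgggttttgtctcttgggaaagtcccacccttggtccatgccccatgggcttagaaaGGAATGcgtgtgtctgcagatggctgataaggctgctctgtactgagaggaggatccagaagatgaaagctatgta
They span chr15:102004333-102004592 (minus strand), chr15:102027966-102028225 (plus), chr15:101712896-101713155 (minus) and chr11:100206021-100206280 (minus). Krt8 holds the TATA box on both strands, overlapping at positions -3 to 5. Krt18 holds the AP-2 motif at -83 to -75, and Krt14 holds the TEAD motif at -66 to -61. Krt5 holds none of the 4 motifs. Over 32851 promoters reaching from 250 bases before to 50 after the start, 13.6% held the TATA box, 16.6% the AP-2 motif, 14.7% the TEAD motif and 35.7% the SP1 motif. Promoters were given for 6 of the 10 members, and a match describes the letters alone. The starts that RefSeq gives for Krt8, Krt18 and Krt14 lie inside the GENCODE intervals of these genes, and that of Krt5 lies just outside. For Krt14 the whole stretch shown, with its TEAD match, lies inside the gene's interval.

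The basal pair marked the stratified classes. Krt5 was at 910 CPM in basal keratinocyte-like cells, 1301 in suprabasal and 4160 in periderm-like cells, and at 20.1 in respiratory-like and 11.7 in olfactory epithelium-like cells. Its 4 libraries ranged from 818 to 997 in basal, from 1123 to 1516 in suprabasal and from 3452 to 6231 in periderm-like cells, so these 3 classes did not overlap. The step from basal to respiratory-like cells was 45.2-fold over the 4 libraries, although control 2 read 206 in its 5 respiratory-like cells. Krt14 was at 1263 CPM in basal, 1017 in suprabasal and 916 in periderm-like cells, with overlapping libraries (1015 to 1517, 666 to 1177 and 378 to 1235), and 39.1 in respiratory-like cells. Its share of cells with a UMI, after thinning each cell to 2000 UMIs, was 77.0% in basal, 46.5% in suprabasal and 26.9% (14 of 52) in periderm-like cells. The ratio of Krt5 to Krt14 UMIs was 0.72 in basal, 1.28 in suprabasal and 4.54 in periderm-like cells. In periderm-like cells the libraries gave ratios of 3.63, 4.48, 16.5 and 3.33, the third from 6 cells.

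Krt15 was at 5383 CPM in periderm-like cells, 893 in basal and 638 in suprabasal cells, and at 108 and 31.1 in respiratory-like and multiciliated-like cells. Its periderm level was 7655, 1440, 7496 and 7558 CPM in control 1, control 2, mutant 1 and mutant 2, from 22, 17, 6 and 7 cells: control 2 stood below the other libraries. Basal and suprabasal libraries overlapped (775 to 1053 against 314 to 997). Krt17 reached further into the simple classes, at 1256 CPM in suprabasal, 1049 in periderm-like, 897 in basal, 253 in respiratory-like and 209 in multiciliated-like cells, with neighbouring classes overlapping in their libraries down to multiciliated-like cells. It was at 38.6 in olfactory epithelium-like cells, whose highest library (46.8) was below the lowest multiciliated-like one (153). Of the 50-base windows in the last 500 bases of the Krt14 and of the Krt17 transcripts, 9.53% were shared among Krt14, Krt16 and Krt17, so a part of their reads may not be told apart.

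Krt1 and Krt10, the pair of differentiating keratinocytes, peaked together in suprabasal cells. Krt1 was at 1769 CPM there (1462, 1089, 2389 and 1921 by library) and at 32.4 in basal cells, a 54.6-fold step. Krt10 was at 2225 CPM (1982, 813, 3122 and 2386) against 68.1 in basal cells, a 32.7-fold step. No library of either gene overlapped between these classes. Below basal cells in Krt1 came periderm-like (18.7), multiciliated-like (14.2) and respiratory-like cells (10.4), where each class overlapped its neighbour in this order, but periderm-like libraries (16.3 to 26.1) lay above respiratory-like ones (0 to 14.0). Krt10 differed from the other members outside the epithelium: 39.3% of its UMIs were in non-epithelial cells, against 1.46% for Krt14 and 7.42% for Krt1. It was at 53.8 CPM in glia-like, 33.5 in mesenchyme-like and 16.9 in endothelial-like cells, with 6.03 to 11.5 in the libraries of macrophage-like cells. The antisense gene Gm11940 overlaps Krt10, Gm671 overlaps Krt7 and Gm36026 overlaps Krt8, and whether the counting used strand is not given in the sources used here.

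Krt8 and Krt18 had the opposite order. Krt18 was at 951, 941 and 898 CPM in respiratory-like, multiciliated-like and olfactory epithelium-like cells, whose libraries overlapped (847 to 1110, 879 to 1040 and 789 to 1149). It was at 598 in periderm-like, 342 in olfactory neuron-like, 110 in basal and 9.88 in suprabasal cells. Krt8 was at 689 CPM in multiciliated-like, 553 in periderm-like, 457 in respiratory-like, 443 in olfactory epithelium-like, 202 in olfactory neuron-like, 99.2 in basal and 6.76 in suprabasal cells. From basal to suprabasal cells, each class taken as a whole, Krt8 was 14.7-fold and Krt18 11.2-fold lower, with no overlap between libraries. The basal class pools 6 clusters, which ran from 7.04 to 245 CPM for Krt8 and from 3.02 to 251 CPM for Krt18. The lowest of these clusters lay near the suprabasal level for Krt8 and below it for Krt18. The ratio of Krt8 to Krt18 was near 0.5 in respiratory-like (0.48) and olfactory epithelium-like cells (0.49), and 0.73, 0.90 and 0.93 in multiciliated-like, basal and periderm-like cells.

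Krt19 separated the airway and periderm classes from olfactory epithelium-like cells, and Krt7 separated periderm-like cells from the rest. Krt19 was at 2095 CPM in periderm-like cells (2900, 1270, 899 and 3316 by library), at 514 in multiciliated-like and at 474 in respiratory-like cells, and between 6.15 and 13.7 in the libraries of olfactory epithelium-like cells, which carried as much Krt18 as respiratory-like cells within the spread of the libraries. The lowest respiratory-like library of Krt19 (373) was above the highest olfactory epithelium-like one (13.7). Krt7 was at 1071 CPM in periderm-like cells (1222, 1039, 717 and 1040 by library), 11.5-fold above respiratory-like cells (92.8), and at 80.3 in multiciliated-like, 40.4 in olfactory epithelium-like and 28.0 in basal cells. Respiratory-like libraries of Krt7 (44.2 to 111) overlapped olfactory epithelium-like ones (33.8 to 57.8). Periderm-like cells thus held Krt5 and Krt15 together with Krt19, Krt7, Krt8 and Krt18, with the suprabasal pair low (Krt1 18.7, Krt10 52.8).

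**Figure D1:**
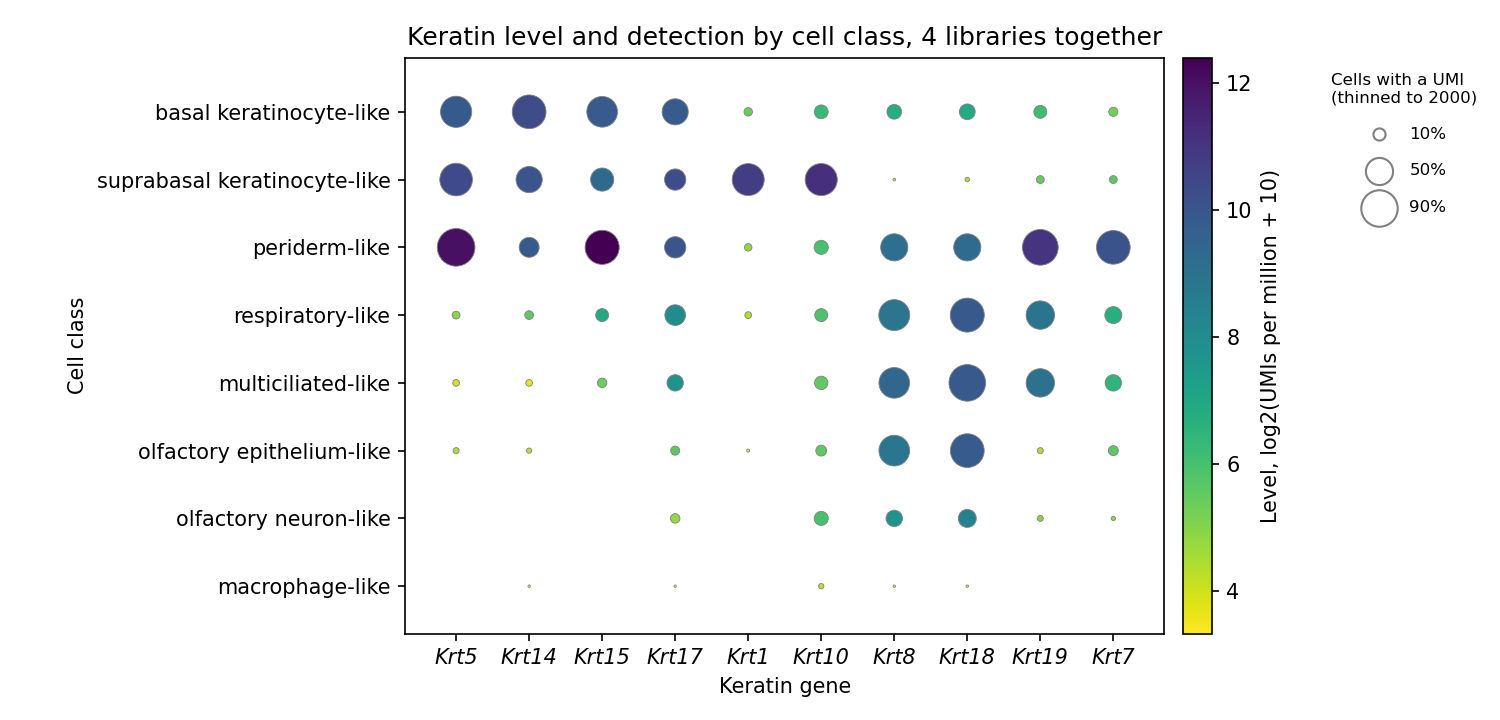
Level (colour, log2 of CPM + 10) and percent of cells with a UMI after thinning each cell to 2000 UMIs (area of the circle) of the 10 keratins in 7 epithelial classes and in macrophage-like cells, 4 libraries together. Krt5, Krt14, Krt15 and Krt17 are high in the upper 3 rows, Krt1 and Krt10 in the suprabasal row, and Krt8 and Krt18 in the rows from periderm-like to olfactory epithelium-like cells.

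Macrophages, which should lack keratins, gave the background of free RNA. Of the 10 genes, Krt10 ranged from 6.03 to 11.5 CPM there over the 4 libraries. The others were between 0 and 1.95 over the libraries together, but in single libraries Krt18 reached 7.45 and Krt7 5.98. After thinning to 2000 UMIs a cell, Krt5, Krt15, Krt1, Krt19 and Krt7 had no UMI in 256 macrophage-like cells, which allows a share of up to 1.17%, and Krt10 had one in 1.95%. Respiratory-like cells had a Krt5 UMI in 4.12% of cells, olfactory epithelium-like in 2.45%, and basal cells in 66.0%. All keratins together took 1.68% of UMIs in periderm-like, 0.929% in suprabasal, 0.445% in basal, 0.257% in multiciliated-like, 0.253% in respiratory-like and 0.159% in olfactory epithelium-like cells. The 10 members held 98.1% of the keratin UMIs of basal cells, 94.7% in periderm-like and 89.3% in suprabasal cells. With the 4 libraries together, type II UMIs were fewer than type I UMIs in every named epithelial class. The ratio was 0.34 in basal, 0.75 in suprabasal, 0.64 in periderm-like and 0.31 in respiratory-like cells. In control 2 alone it was 1.04 in suprabasal, 1.07 in periderm-like and 1.14 in its 3 olfactory epithelium-like cells. The other libraries had fewer type II than type I UMIs in these classes.

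Partners were found in the same cells, where each was often detected. Whether they met in a cell more often than their single shares give was not tested. After thinning, both Krt5 and Krt14 were detected in 348 of 636 basal cells (54.7%). Krt14 was in 82.9% of the cells with Krt5, beside 77.0% of all basal cells. Krt1 and Krt10 were both detected in 121 of 215 suprabasal cells (56.3%). Krt8 and Krt18 were both detected in 49 of 97 respiratory-like (50.5%), 19 of 33 multiciliated-like (57.6%) and 83 of 163 olfactory epithelium-like cells (50.9%), but in 0 of 215 suprabasal cells. By itself Krt8 was detected in 64.9% of respiratory-like and 63.8% of olfactory epithelium-like cells, and Krt18 in 78.4% and 77.3%. Krt15 and Krt19 were both detected in 65.4% of 52 periderm-like cells and in 7.23% of basal cells. Across the 16 epithelial clusters, Pearson's r of log2(CPM + 10) was 0.98 for Krt8 with Krt18, 0.97 for Krt1 with Krt10, 0.95 for Krt5 with Krt15, 0.89 for Krt5 with Krt14 and -0.41 for Krt5 with Krt8. These clusters share libraries, and r is given as a description.

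Cells with both a stratified and a simple keratin were few. Krt5 and Krt8 were both detected in 74 of 1392 thinned epithelial cells (5.32%). They made up 24 of 52 periderm-like cells (46.2%), 41 of 636 basal cells (6.45%), 3 of 97 respiratory-like cells (3.09%) and none of 163 olfactory epithelium-like cells. The unnamed cluster 15 held 4 in 30 cells (13.3%). Among basal cells, cluster 0 had the highest share, 14.8%, and cluster 10 had none of 84. By library the share of epithelial cells was 6.38% of 439, 7.84% of 153, 3.52% of 369 and 4.87% of 431 cells in control 1, control 2, mutant 1 and mutant 2, and without thinning 18.6%, 20.1%, 12.9% and 14.3% of all epithelial cells. Both mutant libraries were lower, with a difference of -2.91 percentage points in the mean, with an exact two-sided permutation p of 0.33, the smallest that 2 against 2 libraries can give. Within basal cells the shares were 6.74%, 6.06%, 6.43% and 6.33%, which overlapped. The periderm-like class itself was 4.82% (exact binomial 95% interval 3.05 to 7.21), 10.7% (6.35 to 16.6), 1.58% (0.58 to 3.41) and 1.54% (0.62 to 3.14) of epithelial cells, also at an exact permutation p of 0.33. The intervals cover counting error only, and the part of the periderm share in the double-positive share was not tested.

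The basal keratinocyte-like class held 6 clusters with different keratin sets. Cluster 13 (146 cells, led by Lmo1 and Tfap2b) and cluster 10 (89 cells, led by Kcnh7 and Kcnip4) had the most Krt14, at 2032 and 1912 CPM, with Krt5 at 1345 and 1349, Krt17 at 172 and 68.4 and Krt8 at 22.4 and 7.04. Cluster 9 (95 cells, led by Plcl1 and Synpo2) had Krt17 at 1973, Krt15 at 1259 and Krt5 at 1112 with Krt14 at 509. Cluster 0 (145 cells) had Krt17 at 1845 together with Krt8 at 227 and Krt18 at 251. Cluster 4 (103 cells, led by Abi3bp) had Krt8 at 245 with Krt5 at 286, the lowest of the 6, and cluster 6 (76 cells) had Krt17 at 1047 and Krt5 at 444. Over the 6 clusters Krt17 spanned 28.9-fold, Krt8 34.8-fold and Krt18 83.3-fold, against 4.71-fold for Krt5, 3.99-fold for Krt14 and 3.28-fold for Krt15. After thinning, Krt17 was detected in 88.0% of the cells of cluster 9 and 13.1% of those of cluster 10. Krt17 is among the leading genes of cluster 0 although it was not used to form it.

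**Figure D2:**
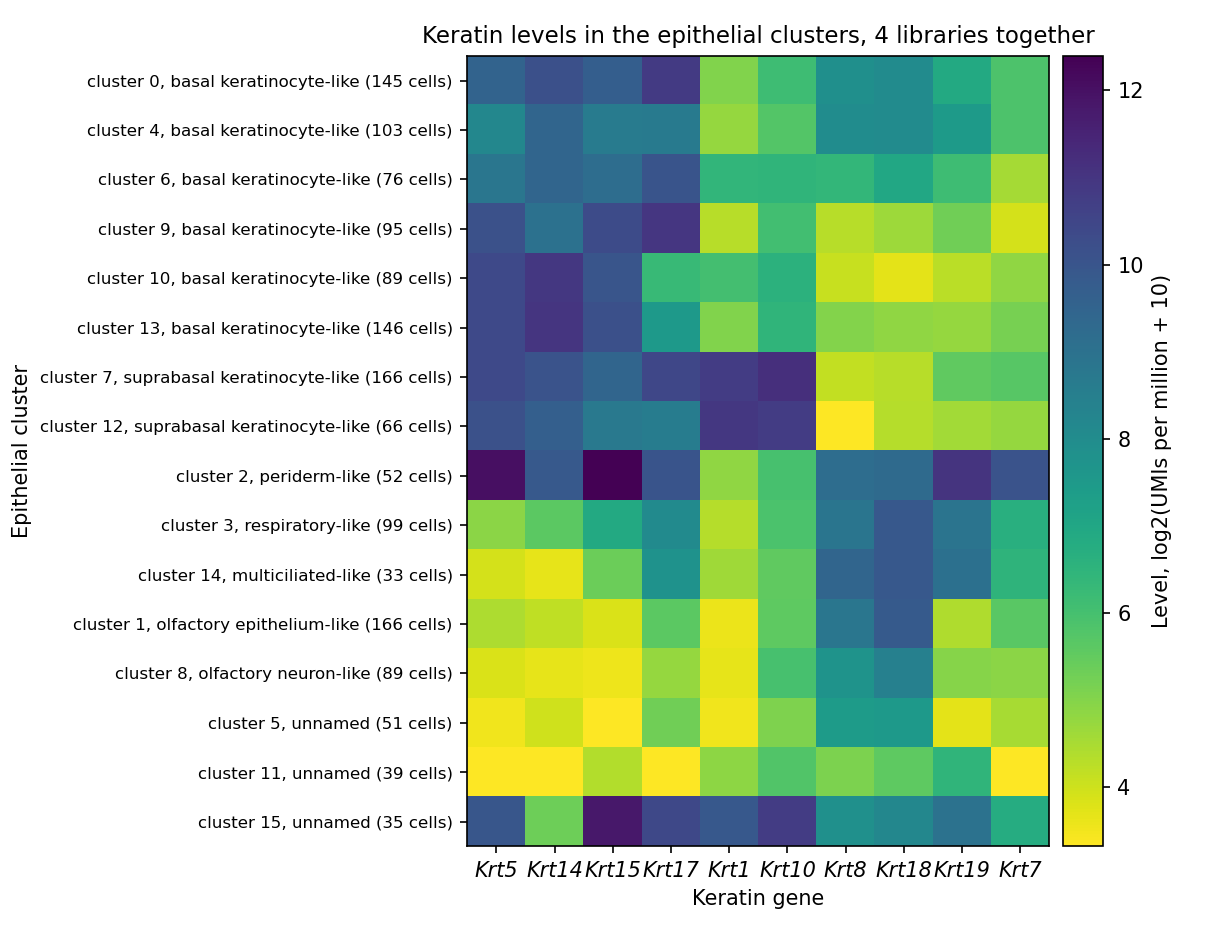
Levels of the 10 keratins (log2 of CPM + 10) in the 16 epithelial clusters, 4 libraries together, with the class name and the number of cells of each cluster. The 6 basal rows share Krt5, Krt14 and Krt15 but not Krt17, Krt8 and Krt18: cluster 10 has Krt17 at 68.4 CPM where cluster 9 has 1973.

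Genes with the most similar pattern were ranked by Pearson's r of log2(CPM + 10) over 36 points, the 9 named classes that each library filled with 20 cells or more, by library. Krt5 was closest to Dsp (r = 0.99), the desmosomal plakin that binds keratin filaments, and then to Krt14 and Krt15. Krt14 and Krt15 were each closest to Epcam (r = 0.99), an epithelial adhesion molecule, and Krt17 to Krt5 (r = 0.99). Krt1 was closest to Rhov, Zfp750 and Ovol1 (r = 0.98 each), the last a transcription factor of epidermal differentiation, and Krt10 to Krt1 (r = 0.97), Ppl (r = 0.96) and Abca12 (r = 0.95), the last a lipid transporter of the epidermal barrier. Among the candidates, Krt8 and Krt18 were closest to Col17a1 (r = 0.96 and 0.94), a hemidesmosome component, and Krt19 and Krt7 had Epcam and Krt15 in their first 2. Candidates were genes with 100 CPM or more in at least 1 class of every library. Krt8 and Krt18 were at 70.3 and 86.4 CPM in the basal cells of control 1, so neither was a candidate for the other here. Simple classes had too few cells in control 2 to enter these points, and these values describe basal and suprabasal cells against non-epithelial ones. Over the 16 epithelial clusters instead, Krt8 and Krt18 were closest to each other (r = 0.98).

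The control and mutant libraries were then compared within the basal class. None of the 10 keratins passed an adjusted p of 0.05 in edgeR's quasi-likelihood test across 11156 genes, of which 5 passed (0.0448%), all higher in the mutant libraries: Elmo1, Zfpm2, Eif3l, Hspa1a and Hspa1b. The member nearest to passing was Krt17, 10th by p. Its controls stood at 645 and 383 CPM and its mutants at 1256 and 1155, a log2 change of 1.22 ± 0.19 (SE, n = 2 against 2) with an adjusted p of 0.097. Both mutants were above both controls, also in 4 of the 6 basal clusters. In cluster 0 Krt17 was at 941, 1114, 2716 and 2667 CPM, in cluster 6 at 892, 409, 1667 and 984, in cluster 13 at 118, 39.0, 335 and 163 and in cluster 10 at 50.7, 42.4, 69.9 and 107. The libraries overlapped in cluster 4 (412, 471, 412 and 363) and cluster 9 (1996, 1336, 2077 and 1910), the latter with 4 cells in control 2.

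The adjusted p of Krt17 moved with the libraries and settings used. Leaving out a library leaves 1 in its group, so that the spread comes from the other pair alone and the lone library is assumed to vary like it. The adjusted p was 3.2e-05 without control 1 (log2 change 1.63), 6.2e-04 without control 2 (0.93) and 0.0093 without mutant 1 (1.17), but 0.27 without mutant 2 (1.28). With the replicate number as a block it was 1.6e-04, without a filter on low counts 1.2e-24, and with DESeq2 0.22. Krt17 also did not pass with DESeq2 size factors in edgeR, stricter cells, doublets kept, keratins allowed in clustering, finer clustering or equal cluster makeup. The largest edgeR adjusted p over the alternatives was 0.33. The log2 change lay between 0.93 and 1.63 over all alternatives. Cluster 9, high in Krt17, held 17 of 183, 4 of 66, 37 of 174 and 37 of 231 basal cells in control 1, control 2, mutant 1 and mutant 2, and with equal numbers of cells drawn from every library in each cluster, which cuts each library to 66 basal cells, the change was 1.25 (edgeR adjusted p = 0.20). The heat-shock gene Hspa1a moved in the same libraries (26.9, 11.9, 131 and 200 CPM, log2 change 2.90 ± 0.29, edgeR adjusted p = 0.019), whereas Fos (832, 1131, 807 and 1292) and Jun (748, 611, 554 and 917), genes of the early stress response, overlapped. The part of the heat-shock genes in the Krt17 difference was not tested.

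**Figure D3:**
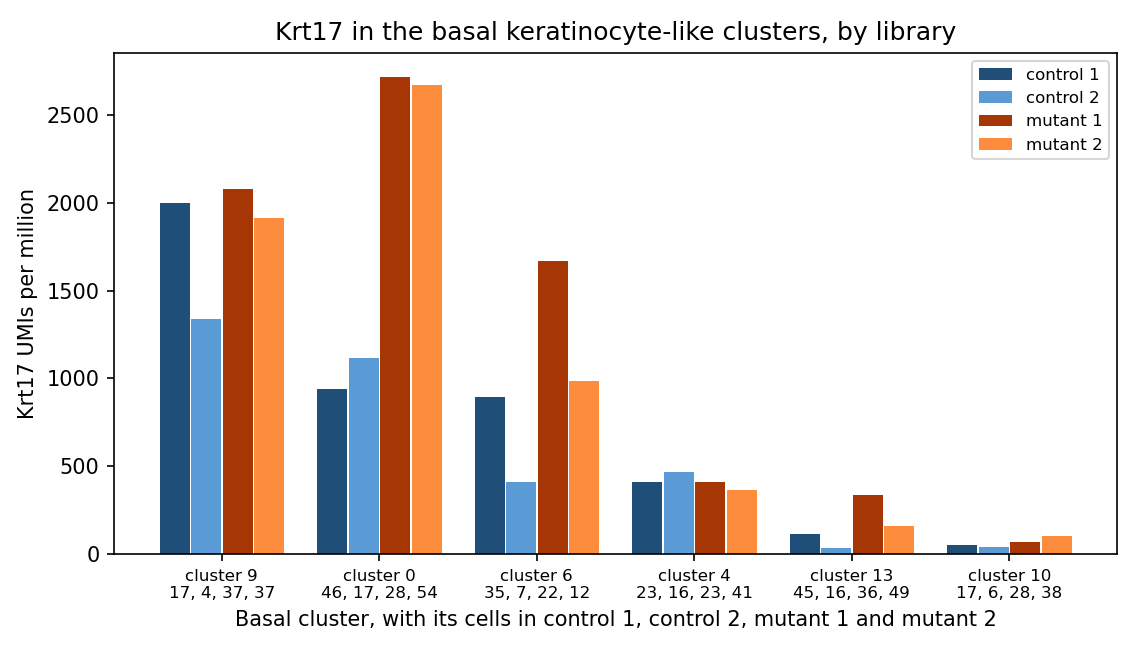
Krt17 in CPM (bars) in each of the 6 basal keratinocyte-like clusters and 4 libraries, with the cells behind each bar under the axis. In cluster 0 both mutant bars (2716 and 2667) are above both control bars (941 and 1114), and in cluster 9 they overlap.

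The other basal members moved less. In the library order Krt5 was at 818, 878, 997 and 973 CPM (log2 change 0.22 ± 0.099), Krt14 at 1191, 1015, 1268 and 1517 (0.34 ± 0.11) and Krt15 at 836, 775, 894 and 1053 (0.28 ± 0.11), all with both mutants above both controls and adjusted p of 0.77, 0.67 and 0.72 in the edgeR fit. Krt1 was lower in both mutants, at 42.1, 40.7, 24.0 and 21.9 CPM (-0.84 ± 0.19, edgeR adjusted p = 0.36), and passed at 0.041 when no filter on low counts was used. Krt10 was also lower in both (76.0, 70.5, 68.5 and 52.5). Krt8, Krt18, Krt19 and Krt7 overlapped between groups. So 4 of the 10 were higher and 2 lower without overlap, beside 18.1% and 19.3% of the 11156 genes (37.4% in either direction). An unadjusted p under 0.05 was reached by 4 of the 10 in edgeR, beside 729 of the 11156 genes, and by 3 in DESeq2, beside 183. At an adjusted p of 0.05 DESeq2 called 12 genes, with no member among them. The members' median log2 change was 0.23, beside -0.0036 over all genes.

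In suprabasal keratinocyte-like cells the pair Krt1 and Krt10 was higher in both mutant libraries, without passing the test. Krt1 was at 1462, 1089, 2389 and 1921 CPM in the library order (log2 change 0.68 ± 0.27, edgeR adjusted p = 0.77), and Krt10 at 1982, 813, 3122 and 2386 (0.89 ± 0.35, edgeR adjusted p = 0.77). Krt5 was lower in both mutants by a narrow gap (1314, 1516, 1309 and 1123, -0.29 ± 0.25), and so was Krt19 at a low level (41.3, 55.2, 20.2 and 19.8, -1.28 ± 0.43, edgeR adjusted p = 0.73). Krt14, Krt15, Krt17 and Krt7 overlapped. Krt17 was at 1552, 460, 1687 and 695, so that control 1 and mutant 1 were high. Krt8 and Krt18 were too low to be tested. No gene of 6523 passed (0%; 363 had an unadjusted p below 0.05, and DESeq2 called 0), and 2 of the 8 tested members were higher and 2 lower without overlap, beside 21.7% and 12.9% of all genes (34.6% in either direction). Leaving out control 2, whose Krt10 was the lowest, gave a Krt10 change of 0.37 in place of 0.89, and leaving out control 1 gave 1.72.

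Krt1, Krt10 and Krt5 had mutant libraries on opposite sides of the controls in basal and suprabasal cells, as had 6.42% of the 6436 genes tested in both. In a test of the difference between the classes, chosen after these values were seen, Krt1 was 1.52 ± 0.33 higher on the log2 scale in the suprabasal than in the basal change (edgeR adjusted p = 0.073), Krt10 1.23 ± 0.34 (0.18) and Krt5 -0.49 ± 0.27 (0.77). Other members differed by more than Krt5: Krt8 by -2.76 ± 1.02 (0.45), at a suprabasal level of at most 14.3 CPM, Krt18 by -1.40 ± 0.68 (0.72), Krt19 by -1.34 ± 0.44 (0.34) and Krt17 by -1.02 ± 0.35 (0.38). Of 9547 genes 3 passed (0.0314%), with no keratin among them. With 1 control library left, so that the mutant pair alone gives the spread, Krt1 passed without control 1 (adjusted p = 0.0028), and Krt1, Krt17 and Krt8 without control 2 (0.035 for Krt1). Krt1 also passed with doublets kept (0.0073) and at the finer clustering (0.030), and Krt10 passed without control 1 (3.9e-05), where its difference was 2.01. These genes were chosen for their opposite directions, and the passes are no independent support. Without control 2 the Krt10 difference was 0.67. The basal Krt1 values behind it were low, between 21.9 and 42.1 CPM.

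**Figure D4:**
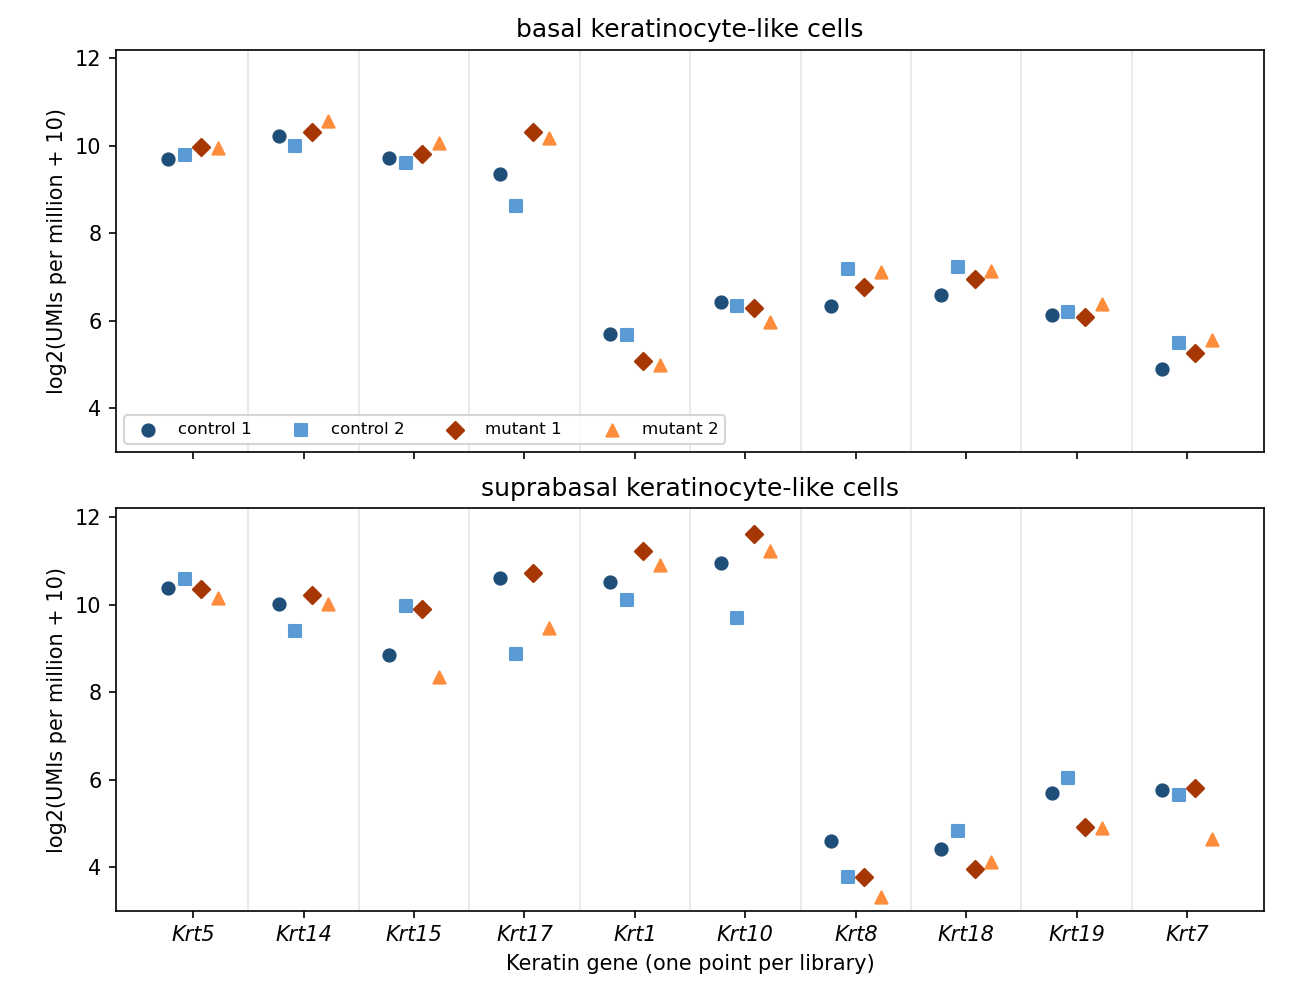
Level of each keratin (log2 of CPM + 10) in the 4 libraries in basal (upper panel) and suprabasal (lower panel) keratinocyte-like cells, 1 point per library. Krt17 has its mutant points above its control points in basal cells (1256 and 1155 against 645 and 383 CPM) and overlaps in suprabasal cells. Krt1 is lower in the mutants above and higher below.

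Summed over all epithelial cells, the keratins follow both the level in each class and the makeup of the epithelium, and fewer cells of a class and less RNA per cell cannot be told apart in such a sum. Krt17 was at 516, 382, 798 and 690 CPM (log2 change 0.70 ± 0.15), Krt18 at 339, 158, 417 and 435 (0.74 ± 0.30), Krt8 at 205, 147, 236 and 270 (0.49 ± 0.16) and Krt10 at 265, 189, 399 and 303 (0.60 ± 0.19). Krt7 was at 73.5, 138, 52.1 and 58.4 (-0.92 ± 0.29). None passed (edgeR adjusted p = 0.90 for each of these), nor did any of the 13621 genes (0%; 654 had an unadjusted p below 0.05, 7 of the 10 keratins among them, and DESeq2 called 6). In all, 6 members were higher and 3 lower without overlap, beside 20.8% and 17.1% of all genes (37.9% in either direction). The sizes moved when 1 library at a time was left out, which leaves 1 library in its group. The log2 change then lay between 0.32 and 1.38 for Krt18, -1.37 and -0.42 for Krt7, and -0.72 and -0.026 for Krt5. The cause of these shifts was not tested.

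The makeup of the epithelium moved with some of these sums. Basal cells were 40.1%, 41.5%, 45.9% and 50.7% of epithelial cells in control 1, control 2, mutant 1 and mutant 2, and olfactory epithelium-like cells 13.6%, 1.89%, 12.7% and 11.6%. Equal numbers of cells were then drawn from every library in each cluster, an alternative added after seeing the data that leaves 128 cells a library. With them the Krt7 change was 0.07 in place of -0.92 and the Krt19 change 0.33 in place of -0.33. The Krt5 change was -0.0016 in place of -0.41. Each library then kept 6 periderm-like cells, the number in mutant 1. Among all retained cells this class held 46.4% of the Krt7 and 37.5% of the Krt19 UMIs, so these values rest on few cells. The part of the makeup in the changes was not tested. Krt17 kept its direction, with log2 changes between 0.52 and 0.92 over all alternatives. Over all retained cells of the nose, Krt17 was at 111, 40.3, 155 and 123 CPM (0.84 ± 0.43) and Krt7 at 16.1, 14.8, 10.3 and 9.88 (-0.65 ± 0.12), both at an edgeR adjusted p of 0.93. None of 17930 genes passed there (0%; 863 had an unadjusted p below 0.05, and DESeq2 called 35), and 3 members were higher and 1 lower without overlap, beside 24.7% and 12.7% of all genes (37.4% in either direction). With 1 library at a time left out, the log2 change lay between 0.29 and 1.73 for Krt17 and between -0.70 and -0.60 for Krt7.

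**Figure D5:**
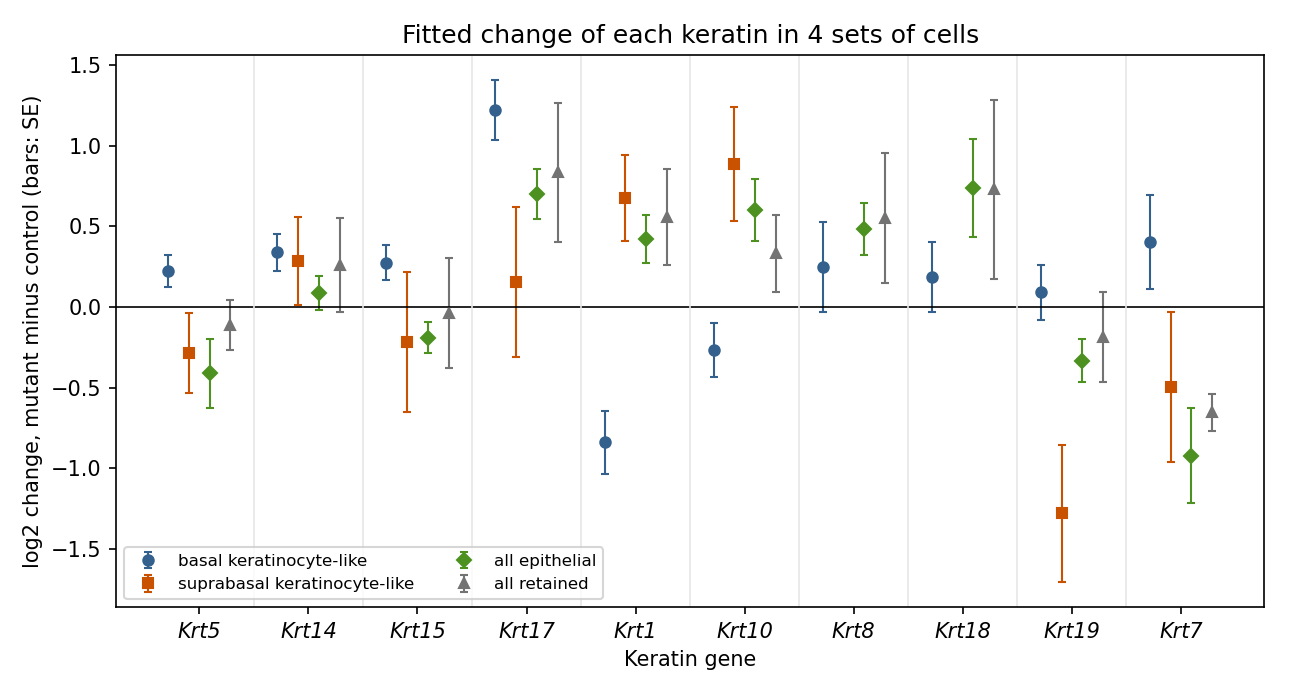
Fitted log2 change, mutant minus control, with its SE (bars) for each keratin in basal, suprabasal, all epithelial and all retained cells. Krt17 is above 0 in all 4 sets (1.22, 0.16, 0.70 and 0.84), Krt1 changes side between basal (-0.84) and suprabasal cells (0.68), and no point passed an adjusted p of 0.05.

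Other keratins were read beside the members. Of the 43, 10 reached 20 CPM in an epithelial class of a library. Krt79 and Krt77 were highest in suprabasal cells (462 and 246 CPM) and Krt6a, Krt4 and Krt16 in periderm-like cells among the named classes (536, 167 and 61.3 CPM). Among the same classes Krt23 was highest in olfactory epithelium-like cells (89.0 CPM). In basal cells 3 of the 10 could be tested and none passed. All 3 had both mutants above both controls, beside 18.1% of all basal genes: Krt79 at 0.95, 0.99, 10.3 and 11.5 CPM (edgeR adjusted p = 0.098), Krt6a at 23.1, 3.97, 42.8 and 50.4 (0.55) and Krt23 at 7.28, 2.98, 19.3 and 12.6 (0.63). Krt6a was at 281, 7.36, 112 and 4.95 CPM in suprabasal cells, so that the libraries with high Krt17 there were also high in Krt6a.

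The proteins that hold keratin filaments at the membrane were a further list. Of 18 desmosome and hemidesmosome genes 17 were tested in basal cells and none passed, with 5 higher and 5 lower without overlap (18.1% and 19.3% over all genes) and a median log2 change of 0.10 beside -0.0036 over all genes. Dsp was at 502, 376, 345 and 337 CPM (-0.37 ± 0.13, edgeR adjusted p = 0.71), Perp, a desmosomal tetraspan protein, at 309, 282, 310 and 339, and Jup (plakoglobin) at 126, 150, 119 and 123. In suprabasal cells Perp reached 2096, 1295, 1872 and 1921 CPM and Dsp 1017, 1063, 1179 and 1320, again without a gene of the list passing. Of 13 epithelial transcription factors and adhesion genes none passed in any of the 4 sets. Epcam, Cdh1 (E-cadherin) and Klf5 were the highest of them over the epithelium, and Klf4, a factor of barrier formation, had the smallest adjusted p in basal cells (144, 142, 84.4 and 97.4 CPM in the library order, -0.65 ± 0.14, edgeR adjusted p = 0.30). Of 9 other intermediate filament genes 3 were tested in basal cells and none passed, with Vim at 110, 144, 104 and 109 CPM and Lmna at 148, 131, 137 and 166. Ina, the third by level over the epithelium, was at 18.8 CPM there.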

How the data were processed

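The authors deposited raw UMI counts per gene and cell barcode, made with cellranger 8.0.1 per the file headers. The submitters' processing notes name Cell Ranger 4, Seurat 4.3.0 and mm10 instead, and which version holds was not settled. Per the labels' protocols the chemistry was 10x 3-prime v3.1, cells were frozen, and 2 providers made libraries. Which library went to which is not given, so a provider and a group cannot be told apart in these UMI counts.

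Barcodes stayed in when they had 500 genes or more and no more than 10% of UMIs from mitochondrial genes. Scrublet in scanpy 1.11.5 marked 0 to 2 doublets per library by its own threshold, so the cells of highest score were removed at 0.8% per 1000 barcodes (149, 56, 87 and 163). Libraries shared 4 to 8 barcodes a pair. Cells were scaled to 10000 UMIs and clustered with leidenalg 0.10.2 (resolution 1, 20 neighbours, 40 components for all cells and 30 for epithelial ones), leaving out keratin genes. Epithelial clusters had at least 3 of 7 epithelial markers at 2 times the mean of all cells and in 20% of their cells. An earlier rule, which also asked for Epcam, had left out the main basal cluster. Names needed at least 3 markers of a list, with no keratin in any list, and the naming rule was set after leading genes, cell numbers and keratin levels had been seen. Epithelial clusters 5, 11 and 15 stayed unnamed.

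For each class, raw UMI counts were added up within a library and the sums entered edgeR 4.0.16 in R 4.3.3 (quasi-likelihood, TMM, filterByExpr, Benjamini-Hochberg over all genes tested at 0.05, 2 against 2 libraries). Classes needed 20 cells in every library. A planned test of the difference between basal and respiratory-like cells could not be fitted, since control 2 had 5 respiratory-like cells, and suprabasal cells took their place. A standard error was obtained as log2 change over root F. The edgeR fit was tested on counts simulated with an assumed spread between libraries. Of 2-fold changes it recovered 40%, 43%, 37% and 46% in the basal, suprabasal, all epithelial and all retained fits. Of 4-fold changes it recovered 94%, 91.9%, 96% and 97%. Most changes of 2-fold would thus be missed at that spread. Shares of cells were taken after thinning each cell to 2000 UMIs, with exact (Clopper-Pearson) 95% binomial intervals. Where no UMI was seen, the upper limit is that of 3 counts. Ranges over classes use libraries with at least 5 cells. Alternatives were DESeq2 1.42.0, its size factors in edgeR, no filter, a replicate block, each library left out, stricter cells (1000 genes, 5%), doublets kept, keratins allowed in clustering and resolution 2. Added after seeing the data were equal cluster makeup (in each cluster as many cells drawn from every library as the smallest holds), named epithelial clusters only, the suprabasal class without its low-depth cluster 12, and similarity over 16 clusters. Gene positions are from GENCODE M21 on GRCm38, matched by identifier for 32158 of 32285 features. Named genes are the 10 members, the 3 most similar genes of each, list genes that passed and the 3 highest of each list. Others, such as Klf4, Hspa1a, Fos, Jun and the 5 genes that passed in basal cells, were named after their values were seen. The members, lists and tests were chosen with earlier results of these data known.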

Additional observations from a re-analysis of the deposited data

Results flagged for a closer look

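In 3 keratins both mutant libraries lay on one side of both controls in basal keratinocyte-like cells and on the other side in suprabasal ones. The same held for 413 of the 6436 genes tested in both classes (6.42%). The difference of the log2 changes, suprabasal minus basal, was 1.52 for Krt1, 1.23 for Krt10 and -0.49 for Krt5. In the edgeR test of that difference, made across all genes, the adjusted p was 0.073, 0.18 and 0.77, so none passed. The Krt1 mean was 41.4 CPM in control and 22.9 in mutant libraries in basal cells, and 1275 against 2155 CPM in suprabasal cells, neither past the threshold within its class.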

How the results depend on the processing

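Deviations of same-numbered libraries correlated at 0.067, 0.12, -0.075 and -0.086 in the basal, suprabasal, all epithelial and all retained fits. Counting noise lowers such a correlation, so it does not settle whether the replicate numbers of the titles tie libraries together. With the replicate number as a block, 51, 6, 2 and 1 genes passed in place of 5, 0, 0 and 0, with 1 keratin, Krt17 (log2 change 1.26), in basal cells, and Krt15 over all retained cells turned to 0.070. Genes passing were 12, 6 and 35 with DESeq2 (basal, all epithelial, all retained) and 179, 61, 437 and 19 without a filter on low counts, with 2 and 5 keratins in basal and all epithelial cells. In basal cells 11 genes passed with doublets kept, 16 with keratins allowed in clustering, 8 at resolution 2 and 0 with equal cluster makeup (equal numbers of cells drawn per cluster, hence fewer cells). For the difference between suprabasal and basal changes 23 genes passed with doublets kept and 0 with stricter cells or equal makeup, with 1 keratin called when doublets were kept and 1 at resolution 2. Leaving out each library in turn gave 4 to 93 genes and 0 to 1 keratins in basal cells, 7 to 41 genes in suprabasal cells, 0 to 919 genes and 0 to 6 keratins in all epithelial cells, 0 to 413 genes and 0 to 5 keratins in all retained cells, and 12 to 54 genes and 0 to 3 keratins for the difference. Such fits take their spread from the pair that is left, with the lone library assumed to vary like it. The cause of these shifts was not tested.

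The difference in the share of cells with both Krt5 and Krt8 was -5.79 percentage points without thinning and -6.54 with at least 2 UMIs of each gene. Shares that turned were respiratory-like (-0.47) and olfactory neuron-like cells (-0.97) with doublets kept, and, over the libraries left out, multiciliated-like (-0.22 to 1.79), olfactory epithelium-like (-1.45 to 10.3) and olfactory neuron-like cells (-1.15 to 2.31). Basal log2 changes turned over the libraries left out for Krt8 (-0.27 to 0.72), Krt18 (-0.21 to 0.52), Krt7 (-0.11 to 0.74) and Krt19 (-0.089 to 0.26), suprabasal ones for Krt14 (-0.015 to 0.68), Krt15 (-1.32 to 0.40), Krt17 (-0.71 to 1.35) and Krt7 (-1.66 to 0.058), all-epithelial ones for Krt14 (-5.6e-04 to 0.18), and all-retained ones for Krt5 (-0.27 to 0.070), Krt14 (-0.14 to 0.82), Krt15 (-0.49 to 0.64) and Krt19 (-0.56 to 0.35). With keratins allowed in clustering Krt19 was -0.030 in basal and Krt15 0.26 in suprabasal cells. With equal makeup Krt7 was -0.22 in basal cells, Krt15 0.070 in suprabasal cells, and Krt15, Krt19 and Krt7 were 0.059, 0.33 and 0.070 in all epithelial cells. Krt14 in all epithelial cells was -0.034 with doublets kept and -0.032 with named clusters only. The planned test against respiratory-like cells was not run.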

Other observations

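Cluster 15 of the epithelium (35 cells, 11, 1, 6 and 17 by library) stayed unnamed and was led by Sprr1a, Krt6a, Tmprss11d and Krt4. Sprr1a is a cornified envelope protein, and Krt4 is a keratin of internal stratified epithelium. It held Krt15 at 3575 CPM, Krt10 at 1759, Krt17 at 1356, Krt5 at 986 and Krt1 at 949, with Krt14 at 29.9 CPM. Krt6a was at 1744, Krt23 at 355 and Krt4 at 232 CPM in the same cells. Krt19 was at 497 and Krt8 at 220 CPM there. Krt1 and Krt10 were at 2845 and 5302 CPM in the 6 cells of mutant 1, at 618 and 1099 CPM in the 11 cells of control 1, and at 622 and 1169 CPM in the 17 cells of mutant 2, so the mutant libraries did not go together.

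Outside the epithelium, 2 clusters of low depth held keratins other than Krt10. An endothelial-like cluster with a median of 1906 UMIs, 104 of whose 124 cells were from mutant 2, had Krt17 at 357 and Krt5 at 127 CPM and no UMI of Krt8 or Krt18. An unnamed cluster with a median of 1508 UMIs (222 cells) had Krt18 at 255, Krt17 at 142 and Krt14 at 101 CPM.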
